A study of Mus musculus with 4 samples.

Results

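Nkx2-3 and 9 genes of vascular adhesion and lymphocyte homing were examined in the sublingual gland of female Nkx2.3-/- mice on the C57BL/6J background. The 10 genes were taken by symbol from the 24411 symbols of the deposited gene count table: the deleted homeobox gene Nkx2-3, its endothelial target Madcam1, the adhesion molecules Vcam1, Icam1 and Glycam1, the chemokines Ccl19, Ccl21a, Cxcl13 and Cxcl12, and the receptor Ltbr. RNA from whole glands, frozen on dry ice and extracted with Trizol, was sequenced in 4 libraries, 2 from mice aged 32 weeks (replicates 3 and 4) and 2 from mice aged 8 weeks (replicates 1 and 2). All 4 libraries carry the knockout and all come from females, so age is the labelled difference, and libraries from mice with intact Nkx2-3 were not analysed here. The labels do not say whether the libraries came from separate animals or which part of Nkx2-3 was removed, and p-values therefore measure the spread between these libraries, which may be technical.

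Nkx2-3 is a homeodomain transcription factor of the gut, the spleen and the developing mouth and pharynx, and the mouse gene is required for normal maturation of the sublingual gland. In mice it is needed for Madcam1, the mucosal vascular addressin, in vessels of the spleen and gut. Lymphocytes leave the blood by rolling on selectin ligands such as Glycam1, by responding to chemokines on the vessel wall, and by gripping Madcam1, Vcam1 or Icam1 through integrins. Stromal and endothelial cells are switched to this program in lymphoid tissue by lymphotoxin, which acts through Ltbr and the noncanonical NF-kappaB pathway.

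The promoters of Madcam1 and Glycam1, both without a single count, and of Nkx2-3 and Icam1, both detected in every library, are shown so that the silent and the detected genes can be compared at sequence level. Each sequence is the RefSeq stretch from 250 bases before to 50 bases after the gene's start in GRCm38.p6, read 5′ to 3′ on the gene's strand, and each occurs once, base for base, on the same chromosome of NCBIM37. Capitals mark matches to AAGTG, the core bound by Nkx2 homeodomains, and to the NF-kappaB consensus GGGRNNYYCC, both searched on both strands. In it R is A or G, Y is C or T and N is any base.
Madcam1, chr10:79664309-79664608, plus strand: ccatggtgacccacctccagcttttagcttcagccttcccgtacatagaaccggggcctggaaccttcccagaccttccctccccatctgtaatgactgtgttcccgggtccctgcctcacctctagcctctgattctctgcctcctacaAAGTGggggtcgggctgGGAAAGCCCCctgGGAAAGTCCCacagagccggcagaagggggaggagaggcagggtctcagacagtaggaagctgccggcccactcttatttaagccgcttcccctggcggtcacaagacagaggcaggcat
Glycam1, chr15:103565032-103565331, minus strand: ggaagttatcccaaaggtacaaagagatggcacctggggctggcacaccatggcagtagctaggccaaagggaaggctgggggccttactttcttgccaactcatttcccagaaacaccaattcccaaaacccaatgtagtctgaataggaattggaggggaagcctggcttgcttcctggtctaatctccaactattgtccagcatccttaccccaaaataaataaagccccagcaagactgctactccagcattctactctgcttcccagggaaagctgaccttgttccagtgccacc
Nkx2-3, chr19:43612075-43612374, plus strand: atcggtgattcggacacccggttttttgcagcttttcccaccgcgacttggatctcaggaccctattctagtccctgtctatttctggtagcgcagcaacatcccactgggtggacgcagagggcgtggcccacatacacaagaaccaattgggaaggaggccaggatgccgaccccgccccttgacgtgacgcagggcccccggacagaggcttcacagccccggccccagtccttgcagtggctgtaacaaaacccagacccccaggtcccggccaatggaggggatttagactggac
Icam1, chr9:21015690-21015989, plus strand: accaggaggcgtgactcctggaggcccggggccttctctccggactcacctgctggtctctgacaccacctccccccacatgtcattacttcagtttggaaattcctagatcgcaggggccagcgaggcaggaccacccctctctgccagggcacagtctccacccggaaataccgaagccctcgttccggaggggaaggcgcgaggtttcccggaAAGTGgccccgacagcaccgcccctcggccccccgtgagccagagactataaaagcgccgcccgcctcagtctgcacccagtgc

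The Madcam1 promoter held 1 AAGTG match, 100 bases before the start, and 2 NF-kappaB matches that did not overlap it. The Icam1 promoter held 1 AAGTG match and the promoters of Glycam1 and Nkx2-3 held none of either motif. AAGTG was present in 46.3% of the 32544 distinct mouse promoters of the same length and the NF-kappaB consensus in 8.49%. The longer form TNAAGTG, which contains AAGTG, was found in 11.5% of them and in none of the 9 promoters available for these genes. Vcam1 is named only. Of the other promoters, those of Ccl19, Cxcl13, Cxcl12 and Ltbr held AAGTG, with 3 matches in Ccl19 and 1 in each other gene, and that of Ccl21a held no match. The Ccl19 start in RefSeq lies 212 bases inside the gene as GENCODE annotates it, so its 3 matches, at positions -206, -126 and -120 from that start, fall within the annotated gene. No match to this NF-kappaB consensus was found outside Madcam1. Looser sites were not searched, and tggaaattcc in the Icam1 promoter departs from the consensus only in its first base.

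The libraries held 12925869 to 16484772 counts. A count of 0 was given an upper limit of 3 counts, the 95% Poisson limit on the upper side alone. That is 0.174 to 0.221 by library in CPM, which are counts per 1000000 after TMM scaling. Such limits and the exact Poisson intervals below cover counting error only. Mucous and serous gland markers were abundant in every library but uneven within an age. Muc19, the gel-forming mucin of this gland, stood at 20267 and 16707 CPM in 32-week glands, against 12009 and 13858 CPM in 8-week glands. Per length Dcpp3, Dcpp2 and Dcpp1 led the list, each lower in 32-week replicate 4 and 8-week replicate 1 than in both other libraries. Dcpp3 had 248836 and 90178 CPM in 32-week glands, against 81876 and 178451 CPM in 8-week glands. Smgc ran the other way, with 41945 and 125755 CPM in 32-week glands, against 141940 and 73218 CPM in 8-week glands. The libraries most alike across genes were 32-week replicate 4 and 8-week replicate 1 (Pearson's r = 0.987 over 12810 genes of log2 CPM, which are not independent replicates), against 0.983 for the 32-week pair and 0.962 for the 8-week pair.

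Reads were still assigned to Nkx2-3 in every knockout library. The gene (ENSMUSG00000044220.11, NCBIM37 chromosome 19, 43686815 to 43690381, plus strand, 2 exons, no overlapping annotated gene) had 21 and 29 counts at 32 weeks and 31 and 28 counts at 8 weeks. These are 1.45 and 1.69 CPM in 32-week glands, against 2.29 and 1.93 CPM in 8-week glands. Both 32-week libraries lay below both 8-week libraries, but the Poisson intervals of all 4 shared values, from 0.898 to 2.22 CPM in the lowest library and 1.55 to 3.24 CPM in the highest. The log2 fold change was -0.42 (SE 0.37, 95% interval -1.29 to 0.45, edgeR adjusted p = 0.999). Per length, Nkx2-3 ranked 9251st to 10324th of 22199 genes with an annotated length, a ranking that includes genes without a count. Between 16139 and 16484 symbols had a count in a library, so the residual signal lay below the middle of the detected genes. Every one of its 2013 exon stretches of 50 bases occurred once in NCBIM37, so its exons have no second exact copy to which the reads could belong. Because the table gives 1 number per gene, it does not show which exon the reads came from.

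No other Nkx gene of the list stood at that level. Of 13 other Nkx homeobox genes, Nkx1-1, Nkx1-2, Nkx2-5, Nkx2-9, Nkx3-2 and Nkx6-1 had 0 counts in all 4 libraries. The largest counts among the remaining 7 were those of Nkx2-6, with 6 and 4 at 32 weeks and 1 and 2 at 8 weeks, or a mean of 0.155 CPM per kilobase of exon against 0.871 for Nkx2-3. Next per length were Nkx6-3, with 1 and 0 counts at 32 weeks and 3 in each 8-week library, and Nkx2-4. Nkx2-4 had 0 counts in both 32-week libraries and 2 and 0 at 8 weeks. None of the 13 was abundant enough to be tested. The genes whose library pattern lay nearest to that of Nkx2-3, by Euclidean distance of centred log2 CPM over the 4 libraries, were Pdcl (0.032), Fpgt (0.033) and Mettl25 (0.056). Mettl25 had 40 and 57 counts at 32 weeks and 59 and 52 counts at 8 weeks. These distances are below the counting error of Nkx2-3 and were picked from 12810 genes over 4 libraries, so nothing is read from them.

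Madcam1, Glycam1 and Ccl21a were not detected in any of the 4 libraries. A count of 0 in every library was found for 25.8% of all symbols in the table. Madcam1 (ENSMUSG00000020310.7, NCBIM37 chromosome 10, 79127319 to 79131281, plus strand) had upper limits of 0.207 and 0.174 CPM in 32-week glands, against 0.221 and 0.207 CPM in 8-week glands. All 1175 of its exon stretches of 50 bases occur once in the genome, so reads from it could have been placed. Glycam1 (ENSMUSG00000022491.4, chromosome 15, 103393193 to 103395509, minus strand), a mucin-like glycoprotein of lymph node vessels, has 433 such stretches and each occurs once. No fold can be given for these genes, and the libraries cannot show whether Madcam1 is higher in a gland with Nkx2-3. In a whole gland, fewer cells of a type and less RNA per cell cannot be told apart.

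The zero of Ccl21a is of another kind. Ccl21a (ENSMUSG00000071003.4, chromosome 4, 42786392 to 42787525, minus strand), a lymphatic and stromal chemokine that draws Ccr7-bearing cells, has no exon stretch of 50 bases that occurs once: 0 of 674 were unique, and the median stretch occurred 8 times. At 100 bases, 0 of 474 were unique. Its annotated copies Ccl21b and Ccl21c also had 0 counts in every library. The sources used here do not say how reads mapping to several places were treated, so absence of the transcript and removal of its reads cannot be told apart. The neighbouring Ccl19 (ENSMUSG00000071005.5, 42768057 to 42770109, minus strand), the other Ccr7 ligand, likewise had 0 of 626 unique stretches of 50 bases, yet it had 4 and 11 counts at 32 weeks and 10 and 3 counts at 8 weeks. Its counts may thus include reads of its copies. The span of 4930578G10Rik on the plus strand covers both genes without sharing an exon base, and that gene was not analysed here. The exon stretches of Cxcl13, Cxcl12, Vcam1, Icam1 and Ltbr were unique throughout at both lengths.

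**Figure D1:**
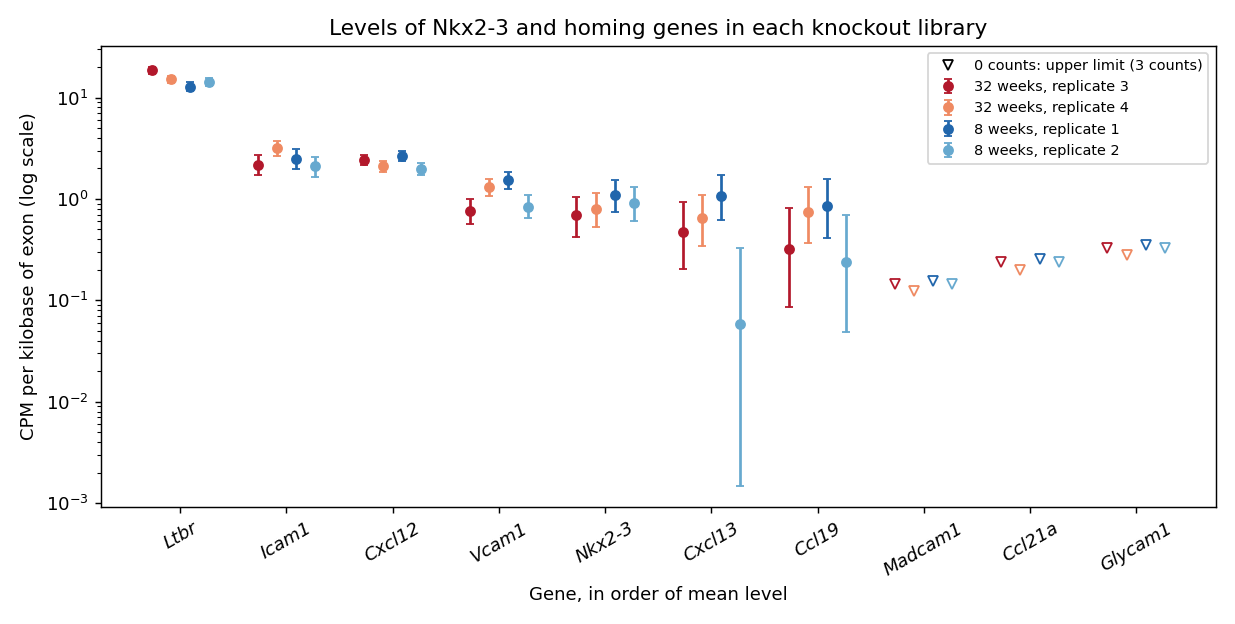
CPM per kilobase of exon (log axis) for the 10 genes in order of mean level, with 32-week libraries in reds and 8-week libraries in blues. Points are single libraries, bars are 95% exact Poisson intervals, and open triangles mark the upper limit that 0 counts allow; Ltbr stands apart at the top, between 12.8 and 18.6, and Madcam1, Ccl21a and Glycam1 have triangles in all 4 libraries.

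Per kilobase of exon, Ltbr was the most abundant of the 10 genes and 7 were detected in all 4 libraries, as were 60.5% of all symbols in the table. Ltbr averaged 15.2 ± 2.46 CPM per kilobase (SD over the 4 libraries), followed by Icam1 at 2.49 ± 0.495, Cxcl12 at 2.29 ± 0.313 and Vcam1 at 1.11 ± 0.368. Below these stood Nkx2-3 at 0.871 ± 0.169, Cxcl13 at 0.56 ± 0.418 and Ccl19 at 0.536 ± 0.303. The range of Ltbr did not overlap that of Icam1, nor that of Cxcl12 the range of Vcam1. The neighbours Icam1 and Cxcl12, Vcam1 and Nkx2-3, Nkx2-3 and Cxcl13, and Cxcl13 and Ccl19 overlapped and had no resolved order. With the longest transcript as the length, Cxcl12 averaged 3.33 and Vcam1 1.6, which placed Cxcl12 above Icam1.

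The chemokines of lymphoid follicles and T cell zones were near the detection limit. Cxcl13 (ENSMUSG00000023078.4, chromosome 5, 96385945 to 96390086, plus strand), which draws B cells into follicles through Cxcr5, had 8 and 13 counts at 32 weeks and 17 and 1 counts at 8 weeks. The 8-week libraries thus held both the highest and the lowest value, 1.25 and 0.069 CPM, with 0.553 and 0.755 CPM at 32 weeks between them. Its log2 fold change was 0.02 with a 95% interval of -2.14 to 2.18. Ccl19 had 0.276 and 0.639 CPM in 32-week glands, against 0.737 and 0.207 CPM in 8-week glands, and the ages overlapped in the same way (log2 fold change 0.0019, 95% interval -1.56 to 1.57). Intervals of this width do not show that either gene is alike at the 2 ages.

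Of the 3 detected chemokines among the 10 genes, Cxcl12 had the most counts and the smallest spread between libraries. This stromal chemokine (ENSMUSG00000061353.5, chromosome 6, 117118553 to 117131385, plus strand), which signals through Cxcr4 and is scavenged by Ackr3, had 287 and 295 counts at 32 weeks and 296 and 235 counts at 8 weeks. These are 19.8 and 17.1 CPM in 32-week glands, against 21.8 and 16.2 CPM in 8-week glands, so that both 32-week values fell between the 8-week values. The highest library was 1.35 times the lowest. The ratio of 18.2 for Cxcl13 rests on a count of 1 in its lowest library, where counting error is large. The log2 fold change was -0.04 (SE 0.22, 95% interval -0.56 to 0.47, edgeR adjusted p = 0.999).

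Vcam1 and Icam1 were detected at modest levels with more spread within an age than between ages. Vcam1 (ENSMUSG00000027962.9, chromosome 3, 115812938 to 115832606, minus strand), the vascular ligand of integrins that contain Itga4, had 54 and 110 counts at 32 weeks and 102 and 60 counts at 8 weeks. In CPM these were 3.73 and 6.39 at 32 weeks and 7.52 and 4.14 at 8 weeks. The high libraries were thus 1 of each age (log2 fold change -0.19, 95% interval -1.11 to 0.72). Icam1 (ENSMUSG00000037405.7, chromosome 9, 20820404 to 20833241, plus strand), the ligand of the leukocyte integrin of Itgal and Itgb2, had 80 and 139 counts at 32 weeks and 86 and 77 counts at 8 weeks. In CPM these were 5.53 and 8.08 at 32 weeks and 6.34 and 5.31 at 8 weeks, and 32-week replicate 4 stood above the rest (log2 fold change 0.23, 95% interval -0.44 to 0.90). Of the 2540 exon bases of Icam1, 491 overlap the microRNA gene Mir1900 on the minus strand. Mir1900 had 0 counts in each library, and how reads in the shared bases were counted is not stated, so the level of Icam1 may be too low.

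Ltbr was higher in both 32-week libraries than in both 8-week libraries, with the narrowest interval of the 7 tested genes, and did not pass the test. This lymphotoxin beta receptor (ENSMUSG00000030339.7, chromosome 6, 125256589 to 125263903, minus strand) had 633 and 615 counts at 32 weeks and 410 and 482 counts at 8 weeks. It stood at 43.7 and 35.7 CPM in 32-week glands, against 30.2 and 33.3 CPM in 8-week glands, and the ages did not overlap. The averages were 39.7 ± 5.65 CPM at 32 weeks and 31.7 ± 2.14 CPM at 8 weeks (SD, n = 2 each). The log2 fold change was 0.32 (SE 0.20, 95% interval -0.14 to 0.79, edgeR adjusted p = 0.999). Set against the summed counts of 12 blood endothelial markers in the same library, the log2 difference of Ltbr was -0.022 and that of Icam1 -0.14. With Vwf left out of the sum, which was chosen after seeing the data, that of Ltbr was 0.045. The endothelial markers had a median log2 fold change of 0.26, and the part of vessel content in the Ltbr difference was not tested.

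**Figure D2:**
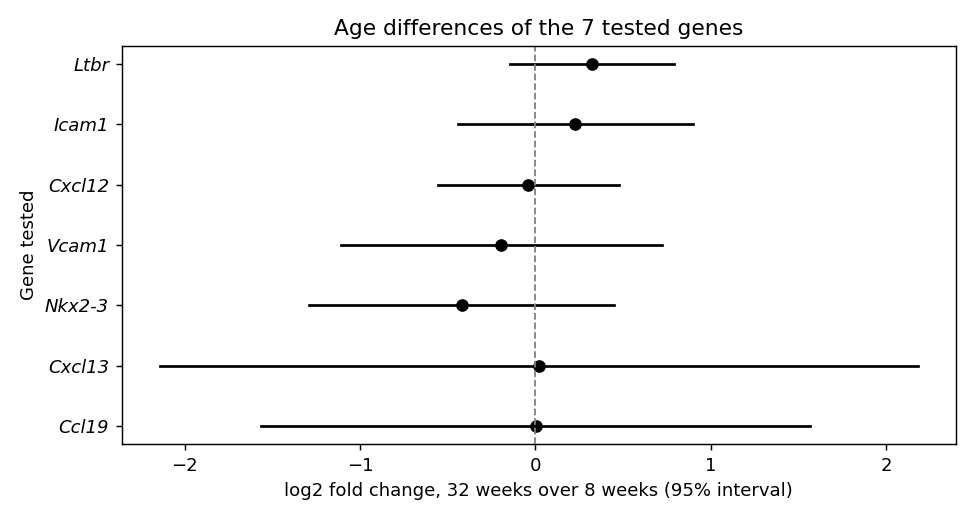
Log2 fold changes of the 7 tested genes, 32 weeks over 8 weeks, on the x axis and genes on the y axis. Points carry 95% intervals worked back from the edgeR fold change and its F statistic. Every interval includes 0, from the narrow one of Ltbr (-0.14 to 0.79) to the wide one of Cxcl13 (-2.14 to 2.18).

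None of the 10 genes was called different between the ages. The low-count filter kept 7 of the 10, Ccl19 and Cxcl13 among them on the strength of 1 library of each age. By edgeR's quasi-likelihood test 0 of 7 were called, where 0 of 12810 genes (0%) were called in all, and none of the 7 had an unadjusted p under 0.05, against 174 genes (1.36%). DESeq2 called 0 of 7 and 3 of 18104 genes (0.0166%). Leaving out 8-week replicate 1 raised the number of genes called by edgeR to 285, none of them among the 7, and gave Cxcl13, then left with the single 8-week count of 1, a log2 fold change of 3.11 (edgeR adjusted p = 0.192). The ages did not overlap for 2 of the 7, Ltbr and Nkx2-3, against 28.6% of all genes tested, a share at the background. Positive fold changes were found for 4 of the 7, against 48.3% of all genes tested, and their median of 0.0019 compares with -0.01 over all genes tested. With 2 libraries against 2 an exact permutation test of a single gene cannot go below p = 0.333.

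Vcam1 and Icam1 were higher in 1 library of each age than in the other libraries. Both 32-week replicate 4 and 8-week replicate 1 lay above both other libraries, a pattern seen in 20.8% of all genes tested. Cxcl13 and Ccl19 had the same order, but they passed the low-count filter only through those 2 libraries, so the filter partly fixed their order and nothing is read from it. Those 2 libraries were also the pair most alike across genes, and they were set apart here after their values had been seen, so no test was made. Vcam1, for example, deviated from its mean log2 level by -0.44 and 0.26 in 32-week replicates 3 and 4 and by 0.48 and -0.31 in 8-week replicates 1 and 2.

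Summed immune cell markers were also highest in those 2 libraries, though not every gene was. The 9 T cell markers summed to 5.18 and 8.08 CPM in 32-week glands, against 10.9 and 3.86 CPM in 8-week glands. The 7 B cell markers summed to 4.35 and 6.74 CPM in 32-week glands, against 8.18 and 2.0 CPM in 8-week glands, and the 8 macrophage and dendritic cell markers to 58.1 and 74.9 CPM in 32-week glands, against 70.6 and 54.4 CPM in 8-week glands. Both libraries lay above both others in 3 of 5 tested T cell genes, 2 of 2 B cell genes and 4 of 7 macrophage and dendritic cell genes, against 20.8% of all genes tested. Low-count genes among these, too, could pass the filter through those libraries. The order was not particular to these lists. It also held in 5 of 7 other homing chemokines, 5 of 8 leukocyte integrins and selectin ligands and 3 of 7 chemokine receptors. It held in 1 of 7 mucous and serous gland genes and 0 of 7 stromal genes. Per length the immune cell marker lists were led by Cd3g, Cd2 and Cd3d, by Cd79a, Cd79b and Cr2, and by Cd68, Cd14 and Adgre1. Cd79a, a B cell receptor subunit, had 30 and 74 counts at 32 weeks and 57 and 12 at 8 weeks, and Adgre1, a macrophage receptor, had 111 and 196 counts at 32 weeks and 193 and 106 at 8 weeks. Csf1r and Cd14, a growth factor receptor and a surface receptor of the same cells, were instead lowest in 8-week replicate 1. Csf1r had 15.5 and 17.7 CPM in 32-week glands, against 13.7 and 14.8 CPM in 8-week glands, and Cd14 had 9.26 and 13.3 CPM in 32-week glands, against 8.92 and 12.5 CPM in 8-week glands. Other defining genes were close to 0: Cd3e, part of the T cell receptor complex, had 0 and 11 counts at 32 weeks and 8 and 2 at 8 weeks. Ms4a1, the B cell surface antigen Cd20, had 0 counts in all libraries except 8-week replicate 1, which had 4. The part of immune cell content in the values of Vcam1, Icam1, Cxcl13 and Ccl19 was not tested.

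**Figure D3:**
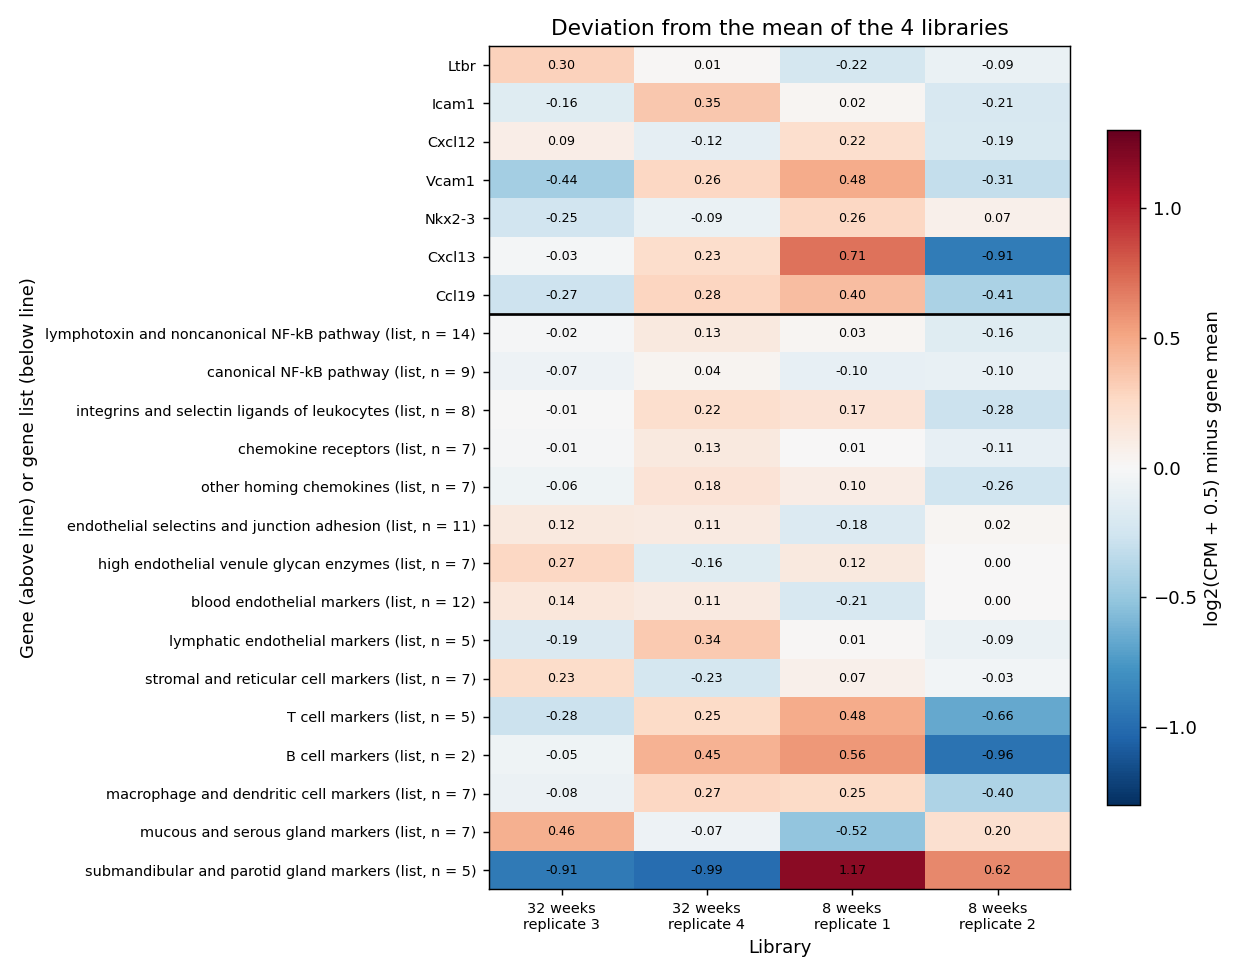
Deviation of each library (columns, 32 weeks left of 8 weeks) from the mean log2(CPM + 0.5) of a gene, for the 7 tested genes above the line and as the list median below it; red is above and blue below the mean. Cxcl13 runs from 0.71 to -0.91 within the 8-week libraries, the lower value from a count of 1. Because the low-count filter partly fixed its order, nothing is read from it. The B cell list (2 tested genes) runs from 0.56 to -0.96.

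Vessel markers were detected in all libraries and ordered the libraries in another way. The 12 blood endothelial markers summed to 116 and 150 CPM in 32-week glands, against 92.4 and 117 CPM in 8-week glands. Vwf, the clotting factor of vessel walls, made up much of each sum, with 39.7 and 87.3 CPM in 32-week glands, against 39.5 and 55.5 CPM in 8-week glands. Pecam1, an adhesion molecule of endothelial junctions, had 11.8 and 12.1 CPM in 32-week glands, against 9.44 and 11.5 CPM in 8-week glands, and Egfl7, a factor secreted by endothelium, had 10.98 and 9.76 CPM in 32-week glands, against 6.93 and 8.21 CPM in 8-week glands. All 12 had positive fold changes, against 48.3% of all genes tested, and 0 of 12 passed the test. Genes of a list share the same 4 libraries, so such counts are not independent observations. Only 1 of the 12 was higher in both 32-week replicate 4 and 8-week replicate 1 than in both other libraries. The 6 lymphatic endothelial markers summed to 7.53 and 9.53 CPM in 32-week glands, against 8.18 and 7.11 CPM in 8-week glands, led per length by Pdpn, Lyve1 and Flt4, and with Prox1, the lymphatic master regulator, at 2 counts in every library.

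Genes of high endothelial venules, the entry vessels of lymphoid tissue, ranged from 0 in Chst4 to 6375 counts in a library for St3gal4. Of the 10 enzymes listed for these vessels, 1 was at 0 in all libraries, against 25.8% of all symbols. That gene, Chst4, sulfates glycans in those vessels. Fut7, a fucosyltransferase of leukocytes and such vessels, had 2 and 3 counts at 32 weeks and 0 and 2 at 8 weeks. Ackr1, a chemokine-binding protein of venules, had 11 and 19 counts at 32 weeks and 3 and 11 at 8 weeks. Chst2, a related sulfotransferase of wider expression, had 21 and 18 counts at 32 weeks and 10 and 18 at 8 weeks, and Fut4, another fucosyltransferase, had 50 and 62 counts at 32 weeks and 45 and 28 at 8 weeks. The endothelial selectins had few counts: Sele had 1 and 2 counts at 32 weeks and 0 in both 8-week libraries, and Selp had 1 and 10 counts at 32 weeks and 2 in each 8-week library. St3gal4 (399 and 356 CPM in 32-week glands, against 470 and 420 CPM in 8-week glands), Enpp2 and B3gnt3 led their list per length. They are not particular to vessels, and Enpp2 is not a glycan enzyme. The list of 10 had 7 tested genes with a median log2 fold change of -0.008, and 0 passed.

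Integrins that bind the adhesion molecules were detected in all 4 libraries. Itga4, which pairs with Itgb7 as the receptor of Madcam1 and with Itgb1 as that of Vcam1, had 177 and 253 counts at 32 weeks and 193 and 141 counts at 8 weeks. Itgb7 had 28 and 49 counts at 32 weeks and 33 and 13 counts at 8 weeks. Itgal and Itgb2 form the receptor of Icam1. Itgal had 36 and 60 counts at 32 weeks and 47 and 23 counts at 8 weeks, and Itgb2 had 59 and 106 counts at 32 weeks and 111 and 74 counts at 8 weeks. Itgb1, which is shared by most cell types, was the most abundant gene of that list per length, followed by Cd44, the hyaluronan receptor, and Itgb2. The list of leukocyte integrins and selectin ligands had 7 of 8 tested genes with positive fold changes (median 0.18), against 48.3% of all genes tested. Of the 8, 0 passed.

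Among chemokine receptors, Cxcr4 had 8 counts in each 32-week library and 8 and 10 counts at 8 weeks, and Ackr3 had 88 and 119 counts at 32 weeks and 71 and 111 at 8 weeks. Cxcr5 had 10 and 14 counts at 32 weeks and 13 and 6 at 8 weeks. Ccr7, the receptor of Ccl19 and Ccl21a, had 4 and 2 counts at 32 weeks and 5 and 8 at 8 weeks. Per length, Cx3cr1, a receptor of macrophages, Ackr3 and Cxcr6 led the list. Of 12 receptors 7 were tested, 6 with positive fold changes (median 0.17), against 48.3% of all genes tested, and 0 passed.

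**Figure D4:**
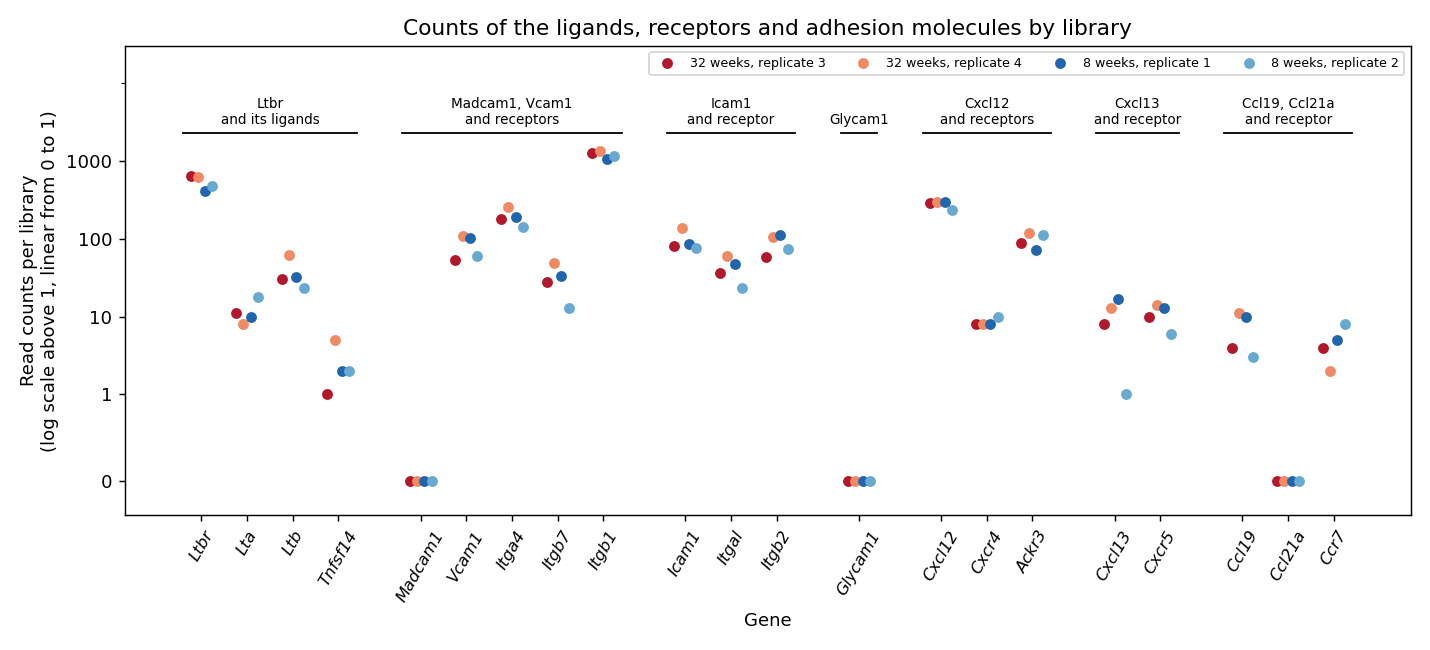
Read counts of each gene in each library (y axis, log scale above 1 and linear from 0 to 1), grouped with receptors or ligands (Glycam1 alone), with 32-week libraries in reds and 8-week libraries in blues. Madcam1, Glycam1 and Ccl21a lie at 0 in all 4 libraries, while Itga4 lies between 141 and 253 counts and Itgb7 between 13 and 49.

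Components of the lymphotoxin pathway were detected with Ltbr, and its ligands had few counts. Lta had 11 and 8 counts at 32 weeks and 10 and 18 at 8 weeks, Ltb had 30 and 62 counts at 32 weeks and 32 and 23 at 8 weeks, and Tnfsf14, the ligand LIGHT, had 1 and 5 counts at 32 weeks and 2 in each 8-week library. Downstream of the receptor, Map3k14, the kinase NIK, had 26 and 38 counts at 32 weeks and 23 and 26 at 8 weeks. Nfkb2 had 58 and 82 counts at 32 weeks and 63 and 44 at 8 weeks, and Relb, its transcription factor partner, had 41 and 43 counts at 32 weeks and 39 and 19 at 8 weeks. Tnfrsf1a, a receptor of tumor necrosis factor, Birc2, a ubiquitin ligase that restrains this pathway, and Chuk, its kinase, were the most abundant of the list per length. Birc2 had 19.1 and 20.6 CPM in 32-week glands, against 26.7 and 26.2 CPM in 8-week glands (log2 fold change -0.41, 95% interval -0.84 to 0.016). Of the 18 genes 14 were tested, 9 with positive fold changes (median 0.20), against 48.3% of all genes tested, and 0 passed.

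In the canonical NF-kappaB list, Nfkbia, the inhibitor that is itself a target of the pathway, had 66.5 and 59.8 CPM in 32-week glands, against 49.5 and 51.95 CPM in 8-week glands (log2 fold change 0.32, 95% interval -0.13 to 0.76). Rela and Nfkb1 were the next most abundant. Of 9 genes tested, 4 had positive fold changes (median -0.08), against 48.3% of all genes tested, and 0 passed.

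The other adhesion and stromal lists gave no call either. Endothelial selectins and junction molecules were led per length by F11r, Alcam and Jam2. Of 11 tested genes 9 had positive fold changes (median 0.21), against 48.3% of all genes tested. Stromal and reticular cell markers were led by Dcn, Lum and Col3a1, with a median of -0.07 over 7 tested genes. Dcn, a matrix proteoglycan, had 219 and 204 CPM in 32-week glands, against 218 and 177 CPM in 8-week glands, so stroma was present in all libraries. The lymphatic list had a median of 0.10 over 5 tested genes, the T cell list 0.18 over 5, the B cell list 0.31 over 2, the macrophage and dendritic cell list 0.08 over 7 and the mucous and serous gland list 0.38 over 7. Markers of the neighbouring submandibular and parotid glands had a median of -2.13 over 5 tested genes, with 0 of 5 passing and 3 of 5 at an unadjusted p under 0.05, against 1.36% of all genes tested. They summed to 173 and 128 CPM in 32-week glands, against 569 and 473 CPM in 8-week glands. Of these, 8-week replicate 1 stood apart in Amy1, a salivary amylase, with 29 and 28 counts at 32 weeks and 2059 and 29 at 8 weeks, and in Smr3a, a submandibular gland protein, with 0 counts in both 32-week libraries and 674 and 0 at 8 weeks. Prol1, another salivary gland gene and the first of the list per length, had 145 and 7 counts at 32 weeks and 2658 and 2946 at 8 weeks. Egf, the next per length, had 157 and 123 CPM in 32-week glands, against 159 and 258 CPM in 8-week glands. Without 8-week replicate 1 the median was -0.88, and the part of tissue from those glands in the values above was not tested.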

How the data were processed

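The table the authors deposited holds raw, whole-number counts for each gene symbol. Per the submitters' processing notes reads were aligned with STAR to mm9. The sources used here name no counting tool, annotation, strand setting or rule for multi-mapping reads, so overlapping, antisense and near-identical genes are uncertain. Columns were matched to libraries through the index labels.

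Here the deposited counts were tested with edgeR 4.0.16 in R 4.3.3 (quasi-likelihood test, TMM, default low-count filter, age as the only term, Benjamini-Hochberg adjustment over all 12810 genes kept, threshold 0.05). Standard errors were worked back from each log2 fold change and its F statistic in the same fit, and 95% intervals were built from them. For fold changes near 0, as in Ccl19 and Cxcl13, these are approximate. DESeq2 1.42.0 and limma-voom (limma 3.58.1) were alternatives. The procedure was tested on simulated data. NCBIM37, the assembly that mm9 names, with GENCODE vM1 gave positions and exon lengths. Of the symbols, 20836 matched by name and 1363 by synonym, and 2212 did not match. Promoters are from RefSeq (GRCm38.p6), and 9 of 10 genes matched. Copies were counted as exact exon stretches of 50 and 100 bases on both strands of NCBIM37.

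The members, gene lists and tests were chosen with earlier results of these data known. The naming rule took all 10 genes, the 3 most abundant per length in each list, list genes at 0, called genes, genes overlapping a member and the 3 nearest patterns to Nkx2-3. Receptors, ligands and other list genes were named for their known roles after their values were seen. Results that need 2 of the genes first listed are not reported here.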

Additional observations from a re-analysis of the deposited data

How the results depend on the processing

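No paired analysis was possible because the ages share no replicate number. In edgeR with 0 genes called higher and 0 lower at 32 weeks, total counts only gave 1 higher and 9 lower, no low-count filter gave 7 lower, and DESeq2 gave 3 lower. Leaving out 1 library gave 0 to 195 genes higher (195 without 8-week replicate 1) and 6 to 90 lower. None of the 5 to 7 homing genes tested under each of these settings was called, and Madcam1, Glycam1 and Ccl21a were never tested. Fold changes of those near 0 changed sign. With total counts only, Ccl19 was at -0.068 and Cxcl13 at -0.068, with no filter Ccl19 was at -0.0045, and with DESeq2 they were at -0.028 and -0.0035. Limma-voom gave Cxcl13 a log2 fold change of 0.95. Against the endothelial marker sum Ccl19 was at -0.26, Icam1 at -0.14, Ltbr at -0.022, Nkx2-3 at -0.76, Cxcl13 at 0.55, Cxcl12 at -0.37 and Vcam1 at -0.53. With Vwf left out of the sum, which was chosen after seeing the data, they were at -0.20, -0.071, 0.045, -0.69, 0.62, -0.30 and -0.46 in that order.

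With 1 library left out, where the lone library is assumed to vary like those of the other age, fold changes ran from -0.53 to -0.29 for Nkx2-3, 0.18 to 0.47 for Ltbr, -0.74 to 1.15 for Ccl19, -0.91 to 3.11 for Cxcl13, -0.23 to 0.19 for Cxcl12, -0.64 to 0.30 for Vcam1 and -0.072 to 0.48 for Icam1. List medians ran from -0.53 to 0.30 for the homing genes, -0.072 to 0.28 for the lymphotoxin pathway and -0.073 to 0.059 for canonical NF-kappaB. They ran from 0.061 to 0.47 for integrins, -0.036 to 0.30 for chemokine receptors and -0.25 to 0.28 for other chemokines. Endothelial adhesion had 0.13 to 0.35, the high endothelial venule enzymes -0.15 to 0.35 and stroma -0.34 to 0.18. T cells had -0.92 to 1.20, B cells -0.38 to 1.63 and macrophages and dendritic cells -0.19 to 0.43. Mucous and serous markers had -0.029 to 0.70, lymphatic endothelium 0.090 to 0.36 and blood endothelium 0.17 to 0.32. Submandibular and parotid markers had -3.86 to -0.88. Canonical NF-kappaB moved to -0.16 with total counts only. Chemokine receptors moved to 0.076 with no filter, 0.010 with the filter of 1 CPM in 3 libraries and 0.077 with DESeq2, and submandibular and parotid markers to -3.70 with no filter and -3.69 with DESeq2. With longest transcripts, levels per kilobase were 3.33 for Cxcl12 and 1.6 for Vcam1. The causes were not tested. At this depth Cxcl13 and Ccl19 had at most 17 counts in a library, and the upper limit used for a count of 0 was 3.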

Other observations

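Ccl28, a chemokine of mucosal epithelia that draws antibody-secreting cells, stood at 290 and 362 CPM in 32-week glands, against 372 and 308 CPM in 8-week glands (log2 fold change -0.06), with no annotated length matched here. Its receptor Ccr10 had 15 and 11 counts at 32 weeks and 10 and 1 counts at 8 weeks. Cxcl14, another epithelial chemokine, had 16.4 and 13.0 CPM in 32-week glands, against 12.5 and 9.59 CPM in 8-week glands, and Ccl5, a product of T cells and NK cells, had 3.94 and 7.26 CPM in 32-week glands, against 9.29 and 3.38 CPM in 8-week glands. Per length, Cxcl14, Ccl5 and Cx3cl1 led the list of other homing chemokines. Of its 7 tested genes 3 had positive fold changes (median -0.06), against 48.3% of all genes tested, and 0 passed. Ccl21b and Ccl21c were at 0 throughout.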
